A study of Mus musculus with 2 samples.

Results

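The genes described here code for proteins of the centrosome. They were chosen by name from a list of E2F1 binding peaks, as the listed genes whose symbol starts with Cep or Haus followed by a digit, or with Tubg. The rule found 23 of the 5594 genes named in the list, with 28 of its 5667 peaks. Since a gene had to be in the list to be chosen, the presence of a peak and its enrichment values are given as descriptions, without a test. The peaks come from primary hepatocytes, the main cells of the liver, of C57Bl6J mice. The cells were harvested 36 h after infection with Ad-E2F1, an adenovirus that carries E2F1. E2F1 ChIP-seq, the sequencing of DNA pulled down with the anti-E2F1 antibody c20, was set by the authors' peak caller against an input library, which is chromatin that saw no antibody. Both records come from infected cells, so no level without the vector was analysed here. There is 1 record for the ChIP and 1 for the input. The design text names 2 replicates, but the peak list is not divided between them, so no value below has a replicate error, and the depth of the libraries is unknown. The cell type is taken from the labels, since binding data hold no RNA level of a hepatocyte marker.

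The centrosome is the main microtubule organiser of an animal cell and is built around a pair of centrioles. Centrioles duplicate in step with DNA replication, and the new centrosomes then form the poles of the mitotic spindle. Microtubules start from ring complexes of gamma-tubulin, and the augmin complex brings these rings to existing microtubules so that the spindle gains branches. E2F1 is a transcription factor best known for driving genes of S phase. Adult hepatocytes seldom divide, and many of them are polyploid.

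Most of the centrosome genes carried their E2F1 peak at the transcription start site (TSS). A promoter peak is one whose summit lies within 1000 bp of a TSS. Of the 23 genes, 21 (91.3%) had one, and of all genes in the list 52.4% had one. Both shares count only genes already in the list. For scale, of all protein-coding genes of the reference table, listed or not, 24.7% had a listed peak of any kind and 13.1% a promoter peak. The other 2 genes, Cep170 and Cep57l1, had peaks only inside the gene. The 21 promoter peaks had a median fold enrichment over the input background of 9.07, with quartiles of 6.53 and 12.16 and a range of 3.33 to 28.15. The other 2591 promoter peaks of the list had a median fold of 6.47. Of the 21 peaks, 16 lay above 6.48, the median of all 2612 promoter peaks. A fold of at least 10 was reached by 8 of the 21 (38.1%), against 21.9% of all promoter peaks. The caller's false discovery rate was at most 1% for 17 of the 21, or 81%, against 60.8% of all promoter peaks. These shares and medians lean to the higher side of the list, and their difference from it was not tested.

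**Figure D1:**
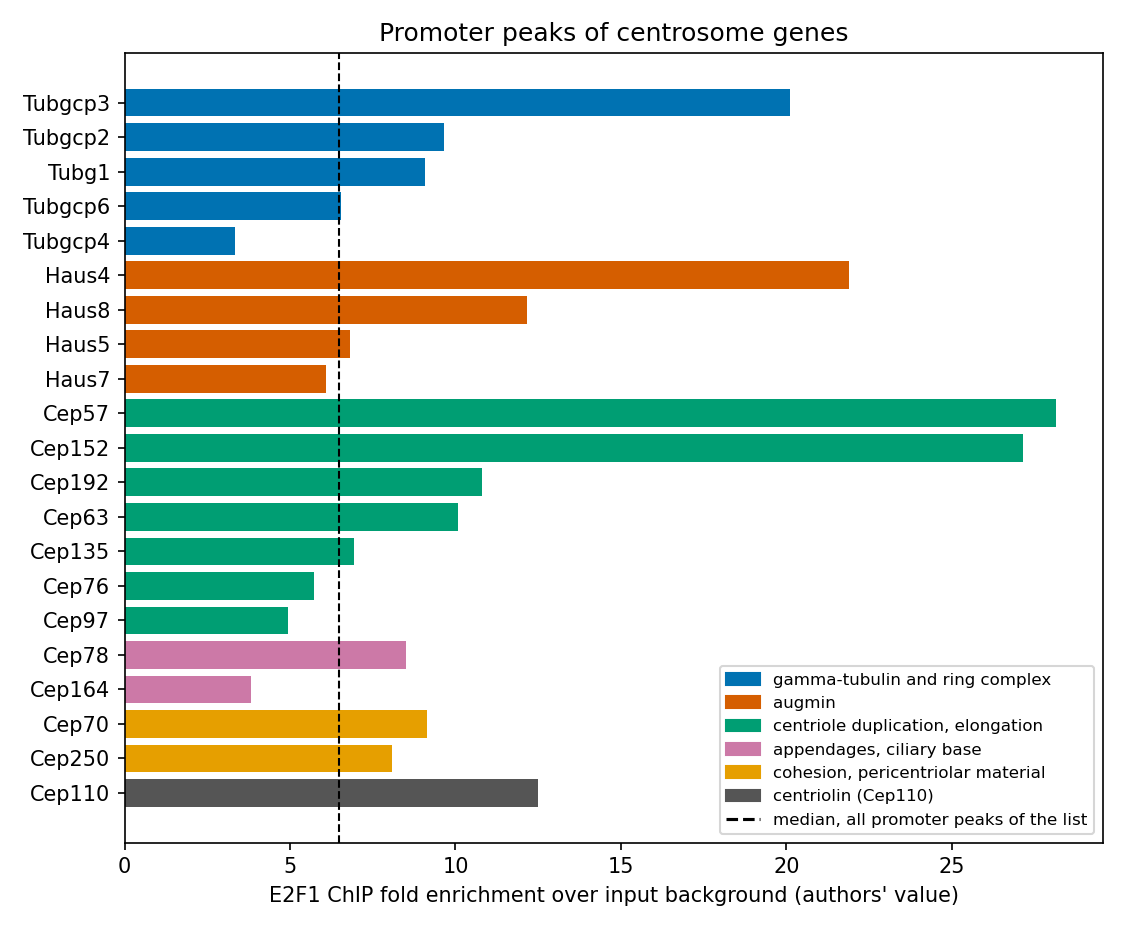
Fold enrichment of the E2F1 ChIP over the input background (horizontal axis, the authors' value) for the 21 promoter peaks of centrosome genes (rows, coloured by role), with no replicate error to draw. The dashed line is the median of all promoter peaks of the list, 6.48, and 5 bars end below it.

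The gamma-tubulin group held promoter peaks at 5 genes. Tubg1, the gene of gamma-tubulin itself, had a fold of 9.07 with 256 tags (exact Poisson 95% interval 225.6 to 289.4), on chromosome 11 from 100981158 to 100981458 of build mm9. A tag is a mapped read counted in the called region, and the intervals cover counting error only. Called regions differ in length, so the tag intervals of different peaks compare counts and not the strength of binding. Tubgcp2 and Tubgcp3 code for the partners with which gamma-tubulin forms its small complex, the building block of the ring. Tubgcp3 had the strongest peak of the group, with a fold of 20.11 and 293 tags (260.4 to 328.5), a score of 556 and a false discovery rate of 0.2%. It spans chromosome 8 from 12672002 to 12672302. The score is a log measure that grows as the caller's p-value falls. Tubgcp2 had less than that, a fold of 9.66 with 95 tags (76.9 to 116.1), and this peak also lay at the promoter of Zfp511.

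Tubgcp4 and Tubgcp6 code for subunits found only in the large ring. Tubgcp6 had a fold of 6.53 with 63 tags (48.4 to 80.6). Tubgcp4 had the weakest promoter peak of all 21 genes, with a fold of 3.33 in spite of 206 tags (178.8 to 236.1). Its score of 57.68 was the nearest of all members to the lowest score in the list, 50, and its false discovery rate was 6.62%. Within the gamma-tubulin group the tag intervals of Tubg1, Tubgcp3 and Tubgcp4 overlap in neighbouring pairs, while their folds differ. Tubg2, a close paralog of Tubg1, and Tubgcp5 had no peak in the list. Since no source says how reads with several matching places were handled, the place of reads between such paralogs is uncertain.

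Augmin was present with 4 of its 8 subunits, all with promoter peaks, where 24.7% of all protein-coding genes had a listed peak. Haus4 had a fold of 21.88 with 415 tags (376 to 456.9), a score of 1171.84 and a false discovery rate of 0%, on chromosome 14 from 55173109 to 55173409. Haus8, the subunit that binds microtubules, had a fold of 12.16 with 179 tags (153.7 to 207.2), a score of 544.3 and a false discovery rate of 0.19%. This peak lies on chromosome 8 from 73796338 to 73796638 and is shared with the promoter of Myo9b, the gene of an unconventional myosin. The Haus8 and Haus4 tag intervals do not overlap. Haus5 followed with a fold of 6.82 and 317 tags, and Haus7, on chromosome X, with a fold of 6.1 and 62 tags. Haus1, Haus2, Haus3 and Haus6 had no peak in the list, which does not show that they were unbound, because the numbering of the peaks skips 13241 entries.

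The group of centriole duplication and elongation had promoter peaks at 7 genes, with folds of 4.94 to 28.15 and a median of 10.09. The pair of strongest peaks of all members, at Cep57 and Cep152, was among them, followed in the order of all members by Haus4 and Tubgcp3. Cep57 codes for a protein of the material around the centriole that works with Cep63 and Cep152, and its human gene is mutated in mosaic variegated aneuploidy. It had a fold of 28.15, the highest of all 28 peaks and the 39th of the whole list, with 552 tags (506.9 to 600). Its score was 1224.11 and its false discovery rate 0%, on chromosome 9 from 13631843 to 13632143. Cep152, the scaffold that receives the duplication kinase PLK4, came next with a fold of 27.14 and 307 tags (273.6 to 343.3), at rank 45. Its peak lay on chromosome 2 from 125450868 to 125451168, with a score of 1350.37 and a false discovery rate of 0%. The Cep152 score was the highest of the 28 peaks, although the Cep57 region held more tags, in a region of 3967 bp against 1411 bp.

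Further genes of this group had weaker promoter peaks. Cep192, which recruits both PLK4 and the surrounding material, had a fold of 10.8 with 303 tags (269.8 to 339.1), a score of 346.96 and a false discovery rate of 0.11%, on chromosome 18 from 67959467 to 67959767. Cep63, a partner of Cep152, had a fold of 10.09 with 253 tags (222.8 to 286.2), a score of 344.01 and a false discovery rate of 0.11%, on chromosome 9 from 102528551 to 102528851. The tag intervals of Cep192 and Cep63 overlap. Cep135, a protein of the cartwheel on which a new centriole is built, had a fold of 6.94 with 290 tags. Cep76, which restrains repeated duplication, had a fold of 5.73 with 208 tags. Cep97, which caps the growing end of the centriole together with CP110, had a fold of 4.94 with 254 tags.

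Centriolin, which the list names Cep110 and current annotation Cntrl, is a protein of the older centriole with a part in cytokinesis. Its promoter peak had a fold of 12.5 with 539 tags (494.5 to 586.5), a score of 463.9 and a false discovery rate of 0.15%, on chromosome 2 from 34964727 to 34965027. The tag intervals of Cep110 and Cep57 overlap, while the fold of Cep57 was 28.15.

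Another 4 member genes, with roles at the appendages, at the ciliary base or in centrosome cohesion, had promoter folds under 10. Cep70, whose protein binds gamma-tubulin, had a fold of 9.14 with 191 tags. Cep78, a centriolar protein whose human gene is mutated in a cone-rod dystrophy, had a fold of 8.51 with 135 tags. Cep250, which codes for the linker C-Nap1 that holds the centriole pair together, had a fold of 8.08 with 228 tags. Cep164, a distal appendage protein needed to form a cilium, had a fold of 3.83 with 92 tags and a false discovery rate of 3.52%. These 4 promoter peaks span folds of 3.83 to 9.14, and only that of Cep164 lies below the median of all promoter peaks.

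The regions ranged from 847 to 3967 bp, and regions with more tags were not always those with the higher fold. The peak inside Cep170 that lies farther from the TSS held 290 tags in 3380 bp and had a fold of 3.14, the lowest of the 28. The Cep135 promoter, also with 290 tags, had a fold of 6.94, and Tubgcp3, with 293, had 20.11. Per kilobase of region, Cep152 had 217.6 tags, Haus4 175.7, Cep110 140.8 and Cep57 139.1, against 85.8 at that peak of Cep170. The lowest density was 57.4 tags per kilobase, at Haus7. Pileup heights at the promoter peaks ran from 32 at Haus7 to 288 at Cep57.

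**Figure D2:**
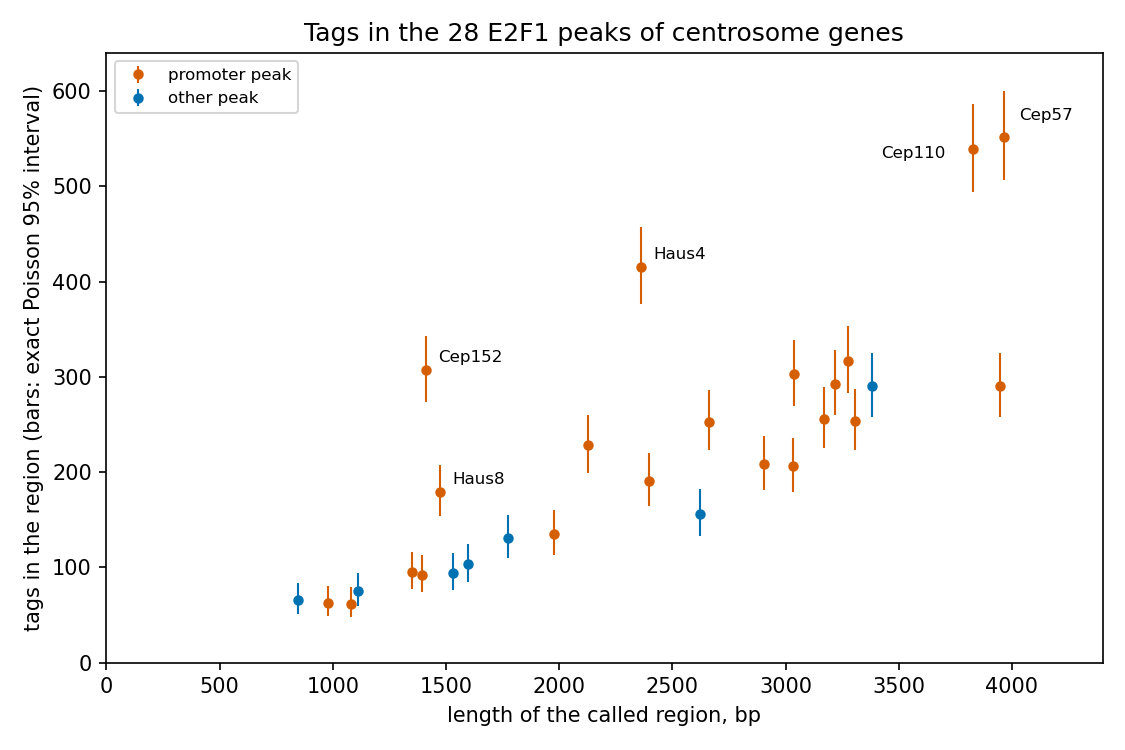
Tags (vertical axis, with exact Poisson 95% intervals of counting error) against the length of the called region in bp (horizontal axis) for the 28 peaks of centrosome genes, by promoter and other peaks. Cep57 and Cep110 stand at the top with 552 and 539 tags, and Cep152 holds 307 tags in only 1411 bp.

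Of the 23 genes, 19 had 1 peak, 3 had 2 and 1 had 3. Cep97 had the most. Its promoter peak, on chromosome 16 from 55934425 to 55934725, had a false discovery rate of 0.63% and a score of 145.8. A peak inside the gene, 32557 bp from the TSS, had a fold of 5.2 with 156 tags, a score of 132.25 and a rate of 0.8%. A peak 12411 bp upstream had a fold of 4.56 with 131 tags, a score of 62.24 and a rate of 5.68%. The inner peak was thus no lower in fold than the promoter peak, at 4.94, and the list names Fam55c as its nearest gene.

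Cep57 had a further peak 12020 bp past the end of the gene, within the body of Mtmr2, with a fold of 4.94, 94 tags, a score of 80.34 and a false discovery rate of 3%. Tubgcp3 had one inside the gene, 29168 bp from the TSS, with a fold of 4.09, 103 tags, a score of 80.5 and a rate of 2.99%. For both genes these folds were far below those of their promoters, 28.15 and 20.11. Cep170, a protein of the subdistal appendages, had peaks at 55307 bp and 61545 bp from the TSS, with folds of 4.52 and 3.14, 66 and 290 tags, scores of 63.93 and 65.21 and rates of 5.34% and 5.18%. Cep57l1, the paralog of Cep57, had a peak 3803 bp into the gene with a fold of 3.91 and 75 tags, and this peak is also listed for Sesn1. The 7 peaks outside promoters had folds of 3.14 to 5.2 with a median of 4.52, against 4.07 for all 3055 such peaks of the list. Their highest fold, 5.2, was passed by 18 of the 21 promoter peaks.

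**Figure D3:**
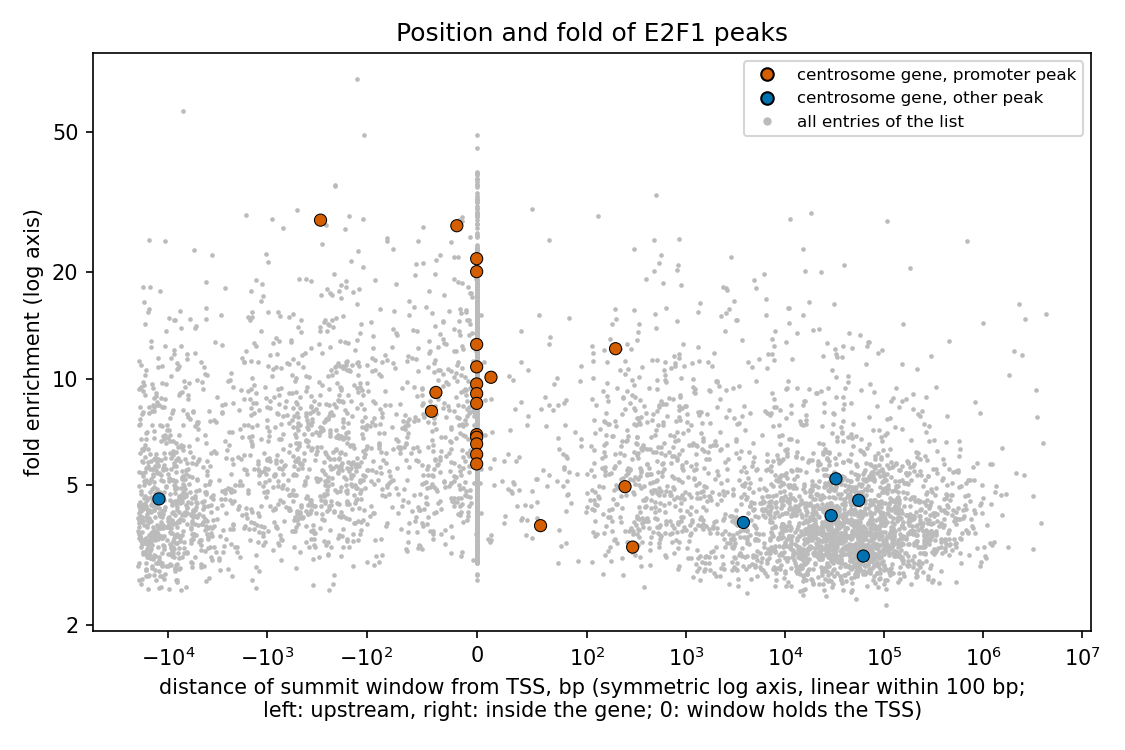
Fold enrichment (vertical axis, log scale) against the distance of the window around the summit from the TSS in bp (horizontal axis, symmetric log scale, upstream to the left) for centrosome genes in colour and all entries of the list with a known TSS distance in grey. All coloured points with a fold above 5.2 lie within 291 bp of the TSS, and the peak past the end of Cep57 is not drawn.

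The promoter peaks sat close to the TSS. The window of 150 bp to each side of the summit held the gene's own TSS at 12 of the 21 genes. At 4 genes it ended upstream and at 5 it began inside the gene, and the largest gap was the 291 bp upstream of Cep57. Members were chosen by gene, so a peak at the promoters of a pair of genes could enter through either of them. The shares over all promoter peaks count each peak once, so such pairs weigh less there than among the members. How far this unlike counting raises the members' shares was not tested. Counting the TSS of any listed gene, 14 windows (66.7%) held one, against 53.6% of all promoter peaks. A single peak was shared by promoters of a pair of genes in 7 of the 21 cases (33.3%), against 12.7% of all promoter peaks. Besides Tubgcp2 and Haus8, these were Cep57 with Fam76b, Cep63 with Anapc13, a subunit of the anaphase-promoting complex, and Tubg1 with Fam134c. Cep76 shared its peak with Psmg2, a proteasome assembly factor, and Tubgcp4 with Zscan29. At Cep57, Cep63, Haus8 and Tubgcp2 the list names the partner as the closer gene. Which gene of a pair the binding concerns cannot be told apart in these data.

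Reference promoters were then searched for the letters of E2F sites. RefSeq promoters of build GRCm38.p6, 250 bases before to 50 after each annotated start, were matched by name to 17 of the 21 genes, with 21 promoters. These include promoters of Cep110 that begin at 35109242 and 35109246 of chromosome 2 and others that begin at 35131966 and 35131984. The list holds 1 peak for Cep110, which cannot lie at both places, so the 21 promoters are not all at a peak. Cep76, Cep192, Tubg1 and Tubgcp2 were not matched. The 8-letter motif TTTCCCGC, TTTGGCGC, TTTCGCGC or TTTGCCGC, on either strand, was found in 2 of the 21 promoters, those of Tubgcp3 and Cep63. It was found in 8.18% of the promoters of all genes with a promoter peak and in 2.26% of all promoters of the table. The 7-letter core, the same letters without the opening T, was found in 11 of the 21 promoters (52.4%), which belong to 9 genes. The share was 26.6% among promoters of all genes with a promoter peak and 9.57% in the whole table. Neighbouring starts of Cep57 and of Cep110 hold the same cores and were counted separately. Counted by gene, the core was at 52.9% of the 17 genes, 30.4% of the 2370 genes with a promoter peak and 10.9% of all genes of the table. Every 8-letter match contains a core, and overlapping matches were counted as 1. Median GC content was 62% in the members' promoters, 60.7% in those of all genes with a promoter peak and 52.7% in the table. The part of base composition in these shares was not tested.

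The promoters of the 4 matched genes with the highest fold are printed here, 5′ to 3′ in the direction of the gene. They show where the core, in capitals, stands in the reference promoter. They begin 250 bases before the annotated start, while the list puts the Cep57 summit window 291 bp upstream of the TSS. By this distance the summit of the Cep57 peak is not in the printed sequence. All 4 genes lie on the minus strand. The coordinates are those of GRCm38.p6 and not of the mm9 peaks. Cep57 has another annotated start close by, whose promoter holds the same core and is not printed.
Cep57, chr9:13827004-13827303: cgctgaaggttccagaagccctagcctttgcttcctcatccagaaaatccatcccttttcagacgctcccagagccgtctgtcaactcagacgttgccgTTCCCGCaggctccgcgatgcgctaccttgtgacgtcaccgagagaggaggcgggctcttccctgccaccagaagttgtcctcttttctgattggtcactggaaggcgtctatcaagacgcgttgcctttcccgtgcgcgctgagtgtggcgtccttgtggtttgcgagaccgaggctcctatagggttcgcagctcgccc
Cep152, chr2:125625064-125625363: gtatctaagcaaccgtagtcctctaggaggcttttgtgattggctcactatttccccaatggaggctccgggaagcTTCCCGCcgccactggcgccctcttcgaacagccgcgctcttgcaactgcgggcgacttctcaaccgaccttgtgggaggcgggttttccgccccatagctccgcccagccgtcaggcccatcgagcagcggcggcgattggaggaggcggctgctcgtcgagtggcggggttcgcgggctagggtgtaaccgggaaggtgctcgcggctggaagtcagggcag
Haus4, chr14:54554312-54554611: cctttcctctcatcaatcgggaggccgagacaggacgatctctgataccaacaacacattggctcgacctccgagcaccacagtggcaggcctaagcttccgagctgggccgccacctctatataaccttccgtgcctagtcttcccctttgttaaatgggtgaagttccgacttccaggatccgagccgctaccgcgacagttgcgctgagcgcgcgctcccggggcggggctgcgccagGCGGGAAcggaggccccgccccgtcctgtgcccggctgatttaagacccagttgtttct
Tubgcp3, chr8:12672051-12672350: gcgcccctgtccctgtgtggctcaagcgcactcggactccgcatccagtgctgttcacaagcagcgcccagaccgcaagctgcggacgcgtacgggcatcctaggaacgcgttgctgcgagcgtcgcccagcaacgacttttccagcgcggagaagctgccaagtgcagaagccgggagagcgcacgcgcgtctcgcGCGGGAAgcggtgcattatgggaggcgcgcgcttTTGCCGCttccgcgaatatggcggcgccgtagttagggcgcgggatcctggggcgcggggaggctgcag

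In these promoters the core TTCCCGC stood 151 to 145 bases before the start at Cep57 and 174 to 168 bases before it at Cep152, reading with the gene. At Haus4 it read on the opposite strand, 9 to 3 bases before the start. Tubgcp3 held a pair of cores, TTCCCGC on the opposite strand at 53 to 47 bases and TTGCCGC at 19 to 13 bases before the start, the second of them part of its 8-letter match. Cep110 also held a pair, and Haus8, Cep63 and Cep70 had 1 core each upstream of the start. Haus5 had 1 core upstream and 1 downstream of it.

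All 7 matched genes with a fold of at least 10 held a core, and 2 of the 10 with a lower fold did, Cep70 and Haus5. Over all genes of the list with a promoter peak and a matched promoter, the core was found in 46.6% of 530 genes with a fold of at least 10 and in 25.8% of 1840 with a lower fold. Cep78, Cep250, Cep135, Tubgcp6, Haus7, Cep97, Cep164 and Tubgcp4 had no core in this window. It ends 50 bases after the start, while the list puts the summit windows of Cep97, Cep164 and Tubgcp4 243, 58 and 290 bp inside the gene. By these distances their summit windows were not searched. The same holds for Haus8, 195 bp inside the gene, and Cep57, 291 bp upstream, whose promoters hold a core. The split by fold thus concerns reference promoters and not the bound stretches. The cell cycle homology region motif TTTGAA is known from promoters of mitotic genes. It was found in 2 of the 21 promoters, at Cep164 and at a start of Cep110 that holds no core and lies far from those with cores. That is 9.52%, against 13.2% of the promoters of all genes with a promoter peak and 17.9% of the whole table. A match is a run of letters and not a measured site.

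**Figure D4:**
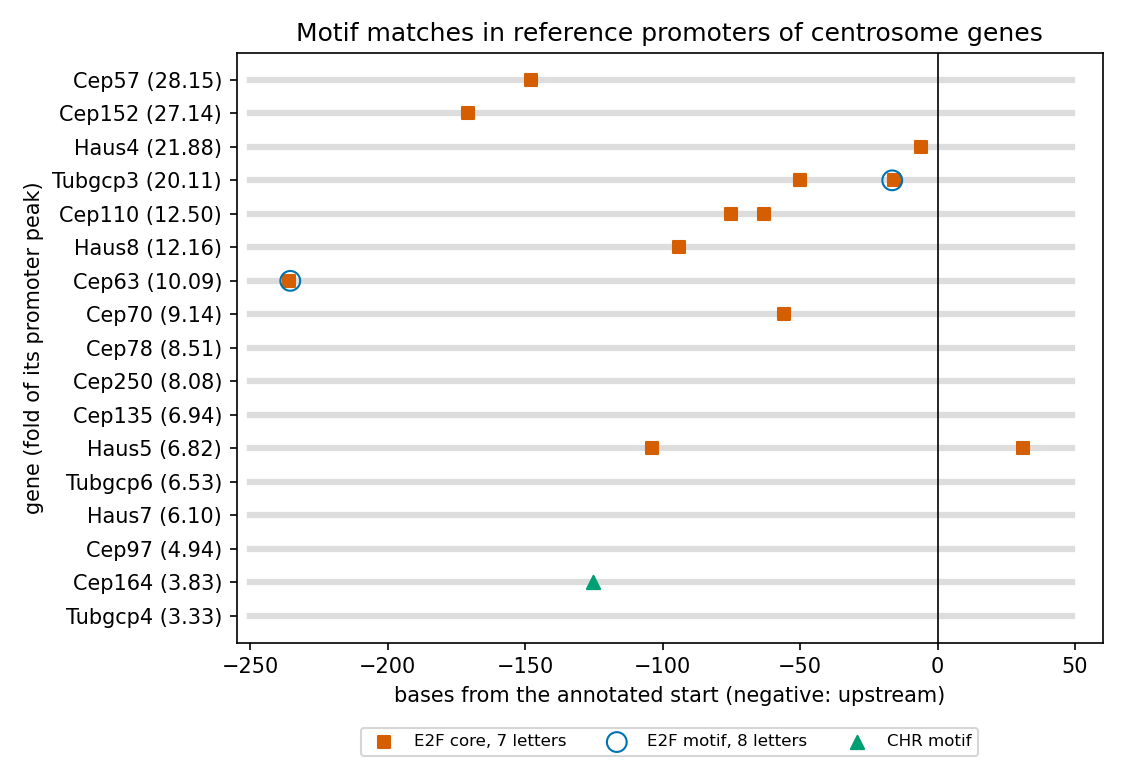
Matches to the 7-letter E2F core, the 8-letter E2F motif and the TTTGAA (CHR) motif in the reference promoters of 17 centrosome genes, as bases from the annotated start (horizontal axis), with genes ordered from the top by the fold of their promoter peak, given in parentheses. For genes with several annotated starts the one with the most cores is drawn. The 8 uppermost genes all hold a core, and Haus5 is the only gene below them that does.

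Other genes of the centrosome and spindle pole, taken from a list of 40 that leaves out the members, had promoter peaks at 21 (52.5%), against 13.1% of all protein-coding genes of the reference table. This list was written from general knowledge with earlier results of these data known, so its share is a description. Plk1, a mitotic kinase that also drives centrosome maturation, had a fold of 30.82 with 258 tags. Ckap5, a microtubule polymerase, had a fold of 13.36 with 325 tags and Numa1, which anchors microtubules at the spindle poles, 13.26 with 364. Stil, a partner of PLK4 in duplication, had a fold of 13.06 with 419 tags, and Mdm1, a centriole protein that limits duplication, 12.06 with 135. Pcnt, the gene of the scaffold pericentrin, had a fold of 10.66 with 259 tags, Rttn, needed to build full-length centrioles, 10.65 with 300, and Kif24, a kinesin at the centriole cap, 9.45 with 392.

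The median fold over these 21 genes was 8.36, with a range of 4.33 to 30.82, against 6.48 over all promoter peaks. The remaining 13 with a promoter peak were Tacc3, Tpx2, Cdk5rap2, Poc1a, Nedd1, Spice1, Mzt2, Cntrob, Sclt1, Nde1, Crocc, Ndel1 and Fbf1. Nedd1, which tethers gamma-tubulin rings to the centrosome, had a fold of 8.15, and Cdk5rap2, which activates them, 8.36. Another 5 genes had peaks away from the promoter. They were Poc1b with a fold of 5.65, Pcm1 with 5.26, Aurka with 5.23, Sass6, the gene of the main cartwheel protein, with 4.27 at 24045 bp inside the gene, and Ccp110 with 3.63. The list analysed here held no peak for 14, namely Plk4, Cenpj, Akap9, Cetn2, Cetn3, Mzt1, Nek2, Nin, Ninl, Odf2, Ofd1, Poc5, Sfi1 and Ttbk2. Plk4, the kinase that starts duplication, was thus without a listed peak, while its partners Cep152, Cep192 and Stil had promoter peaks.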

How the data were processed

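Per the submitters' processing notes, the authors worked on mm9, also named NCBIM37, with Bowtie2 version 2.1.0. Per the file headers, peaks came from MACS, whose version no source states. The deposited table gives per peak a tag count, a pileup signal height, a fold ratio over the expected background, a score of 10 times the negative log10 of the p-value, and a percent false discovery rate. One further deposited column, FERR, has no stated meaning and was not used.

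Members and gene lists were chosen with earlier results of these data known. Every member is named, and the 8 peaks of highest fold and all genes with more than 1 peak have full values. Promoter peaks have the edge of the 301 bp summit window within 850 bp of the TSS. Distances of peaks past a gene end were taken as distances to that end. Coordinates count from 1. Of 5587 symbols, 5493 were matched to a RefSeq table of GRCm38.p6. Tag intervals are exact Poisson. No test was run, since there is 1 list and no replicate. Python 3.11.15, pandas 2.3.3 and SciPy 1.17.1 were used, and the motif search was tested on simulated sequences.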

Additional observations from a re-analysis of the deposited data

How the results depend on the processing

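The count of 21 genes with a promoter peak stayed within 1.5 times under 5 of 6 alternatives, from 17 to 22. Among the 1419 peaks with the highest fold, it was 13, without Cep135, Cep164, Cep76, Cep97, Haus5, Haus7, Tubgcp4 and Tubgcp6. That setting removes low folds by construction. With only the gene closest to each peak it was 17, without Cep57, Cep63, Haus8 and Tubgcp2. The median fold of 9.07 was unchanged with promoters of 500 bp and with the authors' promoter class. It was 8.79 with 5000 bp promoters, 9.66 at a false discovery rate of at most 1%, 10.8 among the peaks with the highest fold and 8.08 with only the closest gene. The other centrosome genes with a promoter peak numbered 16 to 22 under the 5 alternatives run. The 22 genes of the reference families found by current symbol became 32 with older names and 20 with promoter peaks only. The 8-letter motif was in 2 promoters and the 7-letter core in 11, as the shorter letters match more often. No replicate could be left out, since the list holds 1 value per peak. Library depth is unknown, so an unlisted gene may lie below what this depth could show.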

Other observations

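Of the 53 protein-coding genes of the reference table whose current symbol meets the naming rule, 22 were found under that symbol in the list, and a further 10 under older names. Together they make 32 of 53 (60.4%), against 24.7% of all protein-coding genes. A promoter peak was found at 28 of the 53 (52.8%), against 13.1% of all protein-coding genes. Having a listed peak is what chose the members, so these shares are given as values only.

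The genes under older names include several of the cilium. Their promoter peaks, at 8 of the 10 genes, had a median fold of 8.125. Cep128, which the list names 4930534B04Rik and which codes for a subdistal appendage protein, had the strongest of them, whose 404 tags gave a fold of 15.43, on chromosome 12 from 92622757 to 92623057 (mm9). Cep89 and Cep83, both of the distal appendages and listed as Ccdc123 and Ccdc41, had folds of 10.55 with 243 tags and 7.56 with 323 tags. Cep41, linked to tubulin glutamylation in cilia and listed as Tsga14, had a fold of 8.08, Cep131, a centriolar satellite protein listed as Azi1, 6.52, and Cep162, of the transition zone and listed as 4922501C03Rik, 5.84. Cep112 (Ccdc46) had a promoter peak with a fold of 9.87 and 3 peaks inside the gene with folds of 3.73 to 4.3. Cep85 (Ccdc21) had a fold of 8.17 at the promoter, and a peak 21491 bp inside the gene held 550 tags at a fold of 4.69. Cep170b (AW555464) and Cep85l (Gm9766) had peaks away from the promoter, with folds of 3.98 and 2.51.

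The 21 reference genes of these families without a peak in the list under any name include Cep55, which acts in the last step of cytokinesis, Cep290 of the ciliary transition zone, Cep350, Cep120 and Cep295, which act in centriole elongation or stability, and Tubg2. Among the families, 4 of 5 Tubgcp genes, 4 of 8 Haus genes, 1 of the 2 Tubg genes and 23 of 38 Cep genes had a listed peak. The share over all protein-coding genes was 24.7%, and these counts, from few genes in most families, were not tested against it.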
